A study of Drosophila melanogaster with 6 samples.

Results

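Gene expression was compared between wild-type Drosophila melanogaster larvae at the blue gut and the clear gut stage of wandering, the last hours of larval life. When the food is dyed, the gut is still blue early in wandering and has been emptied by the time the puparium is about to form. The comparison covers the 11294 of 15741 table entries whose mean over the wild-type pair was at least 1 RPKM (reads per kilobase of gene and M reads of the library). Just inside this limit lay CG17287 (1.08 RPKM at blue gut and 0.92 at clear gut), CG8534 (1.96 and 0.041) and CG14964 (1.63 and 0.375). Just outside it lay CG12017 (0.52 and 1.48), ppk13 (1.20 and 0.793) and Sas (1.23 and 0.763).

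The series holds 6 RNA-seq libraries, 1 for each of 3 genotypes at both stages. Per the labels, each came from a pool of more than 20 whole third-instar larvae kept at 25 °C. The wild type carries no further description of stock or driver. The other larvae expressed a short hairpin RNA against Cmi (listed as Lpt in the annotation) or against Trr (trr) under the GawB69B Gal4 driver, and Cmi and Trr belong to a COMPASS-like histone methyltransferase complex. Recovered depth in wild type was 23.1 M reads (blue gut) and 24.2 M (clear gut), and the other 4 libraries held 23.3 to 25.0 M. Since each group is 1 library, the spread between pools is unknown and no p-value can be given. Throughout, a gene is called higher or lower when log2(RPKM + 1) differed by at least 1 (2-fold) between the libraries. A ratio of RPKM is given with its exact 95% counting interval, which covers counting error only and not the variation between pools. The target gene trr was not lower in the Trr-labelled blue gut library than in wild type (3.60 against 2.92 RPKM), and was 4.76 against 6.19 RPKM at clear gut, so the pair is called Trr-labelled. Set beside Cmi depletion, where trr measured 4.49 RPKM at blue gut and 5.925 at clear gut, it was lower in the Trr-labelled library at both stages. Lpt was somewhat lower in the Cmi libraries than in wild type, with 4.44 against 5.57 RPKM at the earlier stage and 5.11 against 6.66 at the later one, and the pair is called Cmi depletion after its label.

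As background, the steroid 20-hydroxyecdysone drives this transition. Bound to its receptor EcR, it switches on early transcription factors, which in turn control late effector genes, and the result is the end of feeding, the expulsion of glue, the hardening and tanning of the larval cuticle into the puparium, the death of larval tissues and the eversion of the imaginal discs. The larval midgut, muscles and salivary glands are largely replaced in the pupa, while the discs form the adult body.

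Between blue gut and clear gut, several enzymes of cuticle tanning, most ecdysone-induced regulators, most small heat shock proteins of the 67B cluster and matrix metalloproteases had higher levels. Digestive enzymes, larval serum proteins, larval cuticle proteins, muscle proteins and glycolytic enzymes had lower levels. In all, 1704 genes (15.1%) were at least 2-fold higher at clear gut, 1068 (9.46%) were at least 2-fold lower, and 8522 lay within 2-fold. The median difference over all tested genes was 0.12 on the log2 scale. Scaling the libraries by median ratios moved this median to 0, which the method is built to do, and the counts to 1405 higher and 1263 lower.

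The lower genes were fewer but differed by more. At least 4-fold differences were found for 328 higher and 482 lower genes, and at least 8-fold for 97 and 223. At the far end the order turned, with 20 genes at least 64-fold higher and 10 at least 64-fold lower. The 1068 lower genes held 32.4% of the reads at blue gut and 5.95% at clear gut, and the 1704 higher genes held 8.55% and 30.5%. Most tested genes, 10516 of them, were at 1 RPKM or more in both libraries. Of the higher genes 195 were below 1 RPKM at blue gut, and 7 had no read there. Of the lower genes 233 were below 1 RPKM at clear gut, and 11 had no read there.

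**Figure D1:**
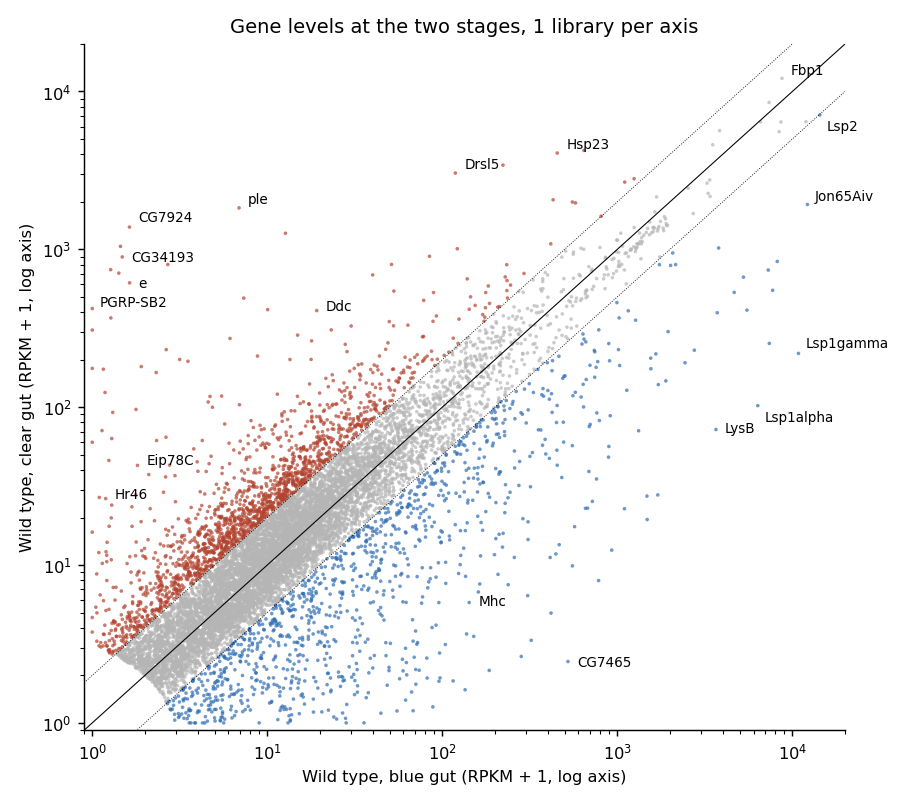
Level of each of the 11294 tested genes in wild type at blue gut (horizontal) and clear gut (vertical), as RPKM + 1 on log axes, with 1 library per axis. Red and blue points are the 1704 genes at least 2-fold higher and the 1068 at least 2-fold lower at clear gut, the solid line marks equal levels and the dotted lines 2-fold, and tanning genes such as e and ple stand at the top left while Lsp1alpha and LysB stand at the lower right.

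In wild type, long genes were higher and short genes lower at clear gut, a trend that touches many of the groups described here. With 1 library per group, whether the trend belongs to the stage or to a single library was not tested. In 5 equal bins of the tested genes by length, the median log2 difference was -0.28, -0.21, 0.03, 0.31 and 0.82 from the shortest to the longest. Of the longest bin (3429 bases and more) 38.6% were at least 2-fold higher, against 8.17% of the shortest (up to 907 bases). The median length was 3494 bases among the higher genes, 1323 among the lower genes and 1787 among all tested. In Cmi depletion the same medians ran from 0.23 to 0.51, and in the Trr-labelled pair from -0.02 to 0.40, a smaller span than in wild type in both. With each gene set against the median of genes of similar length, 941 genes were higher, 838 of them also higher without this centring, and 1095 were lower, 946 of them shared. After centring, the background was 8.33% of all genes higher and 9.695% lower. Counts after centring are given beside each list whose median length is above the 1787 bases of all tested genes, and beside some lists of shorter genes. The part of the length trend in those results was not tested.

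**Figure D2:**
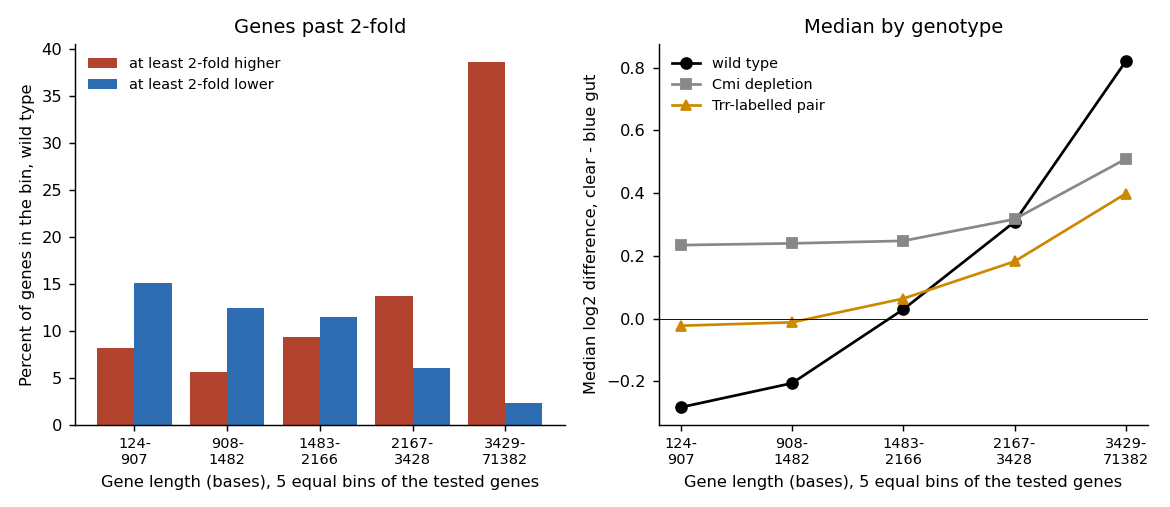
Stage differences by gene length, in 5 equal bins of the tested genes. The left panel gives the percent of wild-type genes at least 2-fold higher (red) and lower (blue), and the right panel the median difference of log2(RPKM + 1), clear gut minus blue gut, in each genotype, with 1 library per stage. The wild-type line runs from -0.28 to 0.82, the steepest of the 3.

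Early ecdysone transcription factors and nuclear receptors were higher as a group. Of 19 tested members 14 were higher and 0 lower, a share of 73.7% beside 15.1% of all genes, and their median log2 difference was 2.09 beside 0.12. The group is long, with a median of 5910 bases, and after centring on length 9 were higher, 1 was lower and the median was 0.98. The group's median was 0.97 in Cmi depletion and 1.53 in the Trr-labelled pair.

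The nuclear receptors downstream of EcR stood out within this group. Hr4, an orphan receptor of the late larval ecdysone response, measured 0.097 RPKM at blue gut and 25.8 at clear gut. Its ratio was 266 with a wide counting interval of 184.6 to 402, since few reads fell on it at blue gut. Hr46, also called DHR3, which represses early genes and activates ftz-f1, measured 0.193 and 25.4 RPKM, a ratio of 132 (93.4 to 191). Eip78C, a Rev-erb relative, went from 0.813 to 41.8 RPKM, a ratio of 51.4 (42.1 to 63.4). In Cmi depletion these receptors measured 0.321 and 18.8 (Hr4), 0.687 and 27.3 (Hr46) and 1.73 and 39.4 RPKM (Eip78C). In the Trr-labelled pair they measured 0.175 and 17.1, 0.604 and 11.9, and 1.08 and 51.2 RPKM. Every clear gut library was above every blue gut library for each of these receptors.

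The classical early genes had smaller ratios from higher starting levels. The zinc finger gene br (Broad), which specifies the pupal fate, measured 16.4 and 103 RPKM, a ratio of 6.31 (6.09 to 6.53). Eip74EF, an ETS factor, measured 11.2 and 80.3 RPKM, a ratio of 7.19 (6.83 to 7.57). Eip75B, a nuclear receptor, measured 8.11 and 40.2 RPKM, a ratio of 4.95 (4.69 to 5.23). Eip75B differed between the genotypes, with 13.9 and 18.6 RPKM in Cmi depletion against 8.97 and 40.4 in the Trr-labelled pair.

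Later-acting factors also began from low levels. Blimp-1, a repressor of ftz-f1, measured 0.285 and 9.80 RPKM, a ratio of 34.4 (23.8 to 51.5). Eip93F (E93), which directs the death of larval tissues and adult specification, measured 0.211 and 6.98 RPKM, a ratio of 33.1 (25.3 to 43.3). In Cmi depletion Eip93F measured 0.469 and 18.2 RPKM, and in the Trr-labelled pair 0.322 and 2.96. By contrast ftz-f1, the competence factor of the mid-prepupa, was low at both stages with 1.47 and 0.75 RPKM, a ratio of 0.512 (0.401 to 0.650). The receptor EcR itself lay within 2-fold, with 12.8 and 17.4 RPKM and a ratio of 1.36 (1.29 to 1.43). It went the other way in larvae of Cmi depletion and past 2-fold, from 18.1 to 7.33 RPKM, while the Trr-labelled pair had 18.6 and 21.3.

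Many ecdysone-induced Imp and Eig71E genes, which often encode secreted or membrane proteins of everting discs and salivary glands, were also higher. Of 18 tested members 11 were higher (61.1%, beside 15.1% of all genes) and 1 lower, with a median log2 difference of 2.64. The list median was 2.31 in Cmi depletion and 0.90 in the Trr-labelled pair, and 5 further members were not tested. Eig71Ee, the most abundant Eig71E gene, was level at 991.5 and 1142 RPKM. The genes of this list are short, with a median of 1545 bases, and after centring on length 10 were higher and 1 lower. ImpE1 measured 3.25 and 60.5 RPKM, a ratio of 18.6 (16.9 to 20.5). Eig71Eb measured 0.244 and 45.0 RPKM, a ratio of 184 (62.7 to 896), and Eig71Eg 0.292 and 22.97 RPKM, a ratio of 78.7 (30.4 to 290.3). In the Trr-labelled pair Eig71Eb went only from 1.33 to 2.76 RPKM, while in Cmi depletion it went from 0.837 to 73.7. The member that was lower is ImpL3, lactate dehydrogenase, with 88.1 and 31.4 RPKM, a ratio of 0.357 (0.334 to 0.380).

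Genes that make ecdysone were close to level, whereas its breakdown enzyme was higher. Of 13 tested genes of ecdysteroid synthesis, uptake and breakdown 3 were higher (23.1%, beside 15.1% of all genes) and 0 lower. Their median was 0.36, and 1 was higher after centring on length. The Halloween enzymes phm (22.6 and 26.3 RPKM), sad (21.4 and 33.6), dib (2.82 and 2.49) and shd (59.6 and 47.9) lay within 2-fold. Cyp18a1, which inactivates 20-hydroxyecdysone, measured 3.67 and 13.1 RPKM, a ratio of 3.57 (3.08 to 4.14). It went the other way in Cmi depletion, from 4.58 to 3.05 RPKM, and from 1.72 to 7.96 in the Trr-labelled pair. The brain hormone gene Ptth stood at 1.58 and 1.43 RPKM, and the counting interval of its ratio (0.558 to 1.47) includes 1.

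Among 13 genes of juvenile hormone synthesis, response and breakdown 4 were higher and 3 lower, with a median of -0.26. The shares were 30.8% and 23.1%, beside 15.1% and 9.46% of all genes. The hormone's target Kr-h1 measured 7.96 and 26.2 RPKM, a ratio of 3.29 (3.06 to 3.54). The epoxide hydrolase gene Jheh3 measured 169 and 15.6 RPKM, a ratio of 0.0923 (0.0847 to 0.1004). The synthetic enzyme gene jhamt was low, at 1.34 and 0.948 RPKM, with an interval of the ratio of 0.395 to 1.26. CG2016, a member of the haemolymph juvenile hormone binding protein family by its list, measured 3.86 and 98.9 RPKM, a ratio of 25.6 (21.1 to 31.3).

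The salivary glue genes, which ecdysone switches on before wandering and off before pupariation, were mostly still abundant at clear gut. Of 12 tested 1 was higher (8.33%, beside 15.1% of all genes) and 2 lower (16.7%, beside 9.46%). The group's share of the reads was 2.36% at blue gut and 1.80% at clear gut. Sgs3 measured 8406 and 5564 RPKM, Sgs4 3303 and 2263, Sgs5 6576 and 6421 and Sgs8 3254 and 2625, all within 2-fold. Sgs1 was lower, with 250.2 and 104 RPKM, a ratio of 0.414 (0.404 to 0.424). Sgs7 had few reads assigned at both stages (1.598 and 0.942 RPKM). Its recovered reads at clear gut (18.5) were off whole, and its given length of 813 bases exceeds its RefSeq span (11509861 to 11510247). Whether read assignment or annotation lowered the Sgs7 value was not tested. The clear gut wild type and the clear gut Cmi depletion libraries differed here, with Sgs3 at 5564 against 571 RPKM and Sgs5 at 6421 against 750.1. Both genes were already lower in the earlier library of Cmi depletion. There Sgs3 measured 2968 RPKM, below 8406 in wild type, and Sgs5 1011, below 6576. Within Cmi depletion Sgs5 differed by less than 2-fold between stages (log2 difference -0.43), while Sgs3 was lower (-2.38). The regulator fkh was higher in wild type, with 6.36 and 19.5 RPKM in whole larvae, while sage of the same list lay within 2-fold, at 36.2 and 22.5. The other lower member was ng3, with 656.5 and 21.9 RPKM.

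Genes of cuticle tanning held some of the greatest differences of the whole comparison. Tanning joins dopamine-derived quinones to cuticle proteins. Of 22 tested tanning and melanin genes 10 were higher and 5 lower, with a median of 0.74, and the same counts were found after centring on length. Their share of the reads went from 0.209% to 1.17%. Enzymes that make and conjugate dopamine were among the higher ones. The lower ones were the prophenoloxidases proPO45 and proPO-A1, Hn (170.0 and 82.0 RPKM), yellow-d2 (114.3 and 44.5) and yellow-f2 (1.78 and 0.224).

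Along the pathway, Pu (GTP cyclohydrolase), which makes the cofactor of tyrosine hydroxylase, measured 88.1 and 532 RPKM, a ratio of 6.04 (5.83 to 6.25). The rate-limiting tyrosine hydroxylase gene ple (chromosome 3L, 6713356 to 6719525, dm6) measured 5.90 and 1830.0 RPKM, a ratio of 310.4 (282 to 342). Ddc, dopa decarboxylase, measured 18.2 and 408 RPKM, a ratio of 22.5 (21.2 to 23.9). The gene e (ebony), which conjugates dopamine with beta-alanine, measured 0.634 and 612 RPKM, a ratio of 966 (724 to 1320.0). The gene b (black), which makes beta-alanine, measured 1.32 and 165 RPKM, a ratio of 125 (98.0 to 162). In contrast t (tan), the hydrolase that reverses the step of ebony, was level at 8.30 and 6.60 RPKM. The oxidase laccase2, which cross-links the cuticle, was also within 2-fold at 4.33 and 5.66 RPKM.

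A member of the yellow family moved with these enzymes. yellow-c measured 1.65 and 231 RPKM, a ratio of 140 (109 to 186), while the black pigment gene y was near 0 in both (0.234 and 0.223 RPKM). The prophenoloxidase proPO-A1 measured 181 and 74.0 RPKM, a ratio of 0.409 (0.394 to 0.424). It reached 64.4 and 3.84 RPKM in Cmi depletion and 33.5 and 1.80 in the Trr-labelled pair, a wider step than in wild type. For ple, e, b and yellow-c the 3 clear gut libraries lay far above the 3 blue gut libraries, with e at 1160.0 RPKM in Cmi depletion and 435.0 in the Trr-labelled pair. Ddc was 147 RPKM at clear gut in Cmi depletion, below the 408 of wild type and the 382 of the Trr-labelled library.

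**Figure D3:**
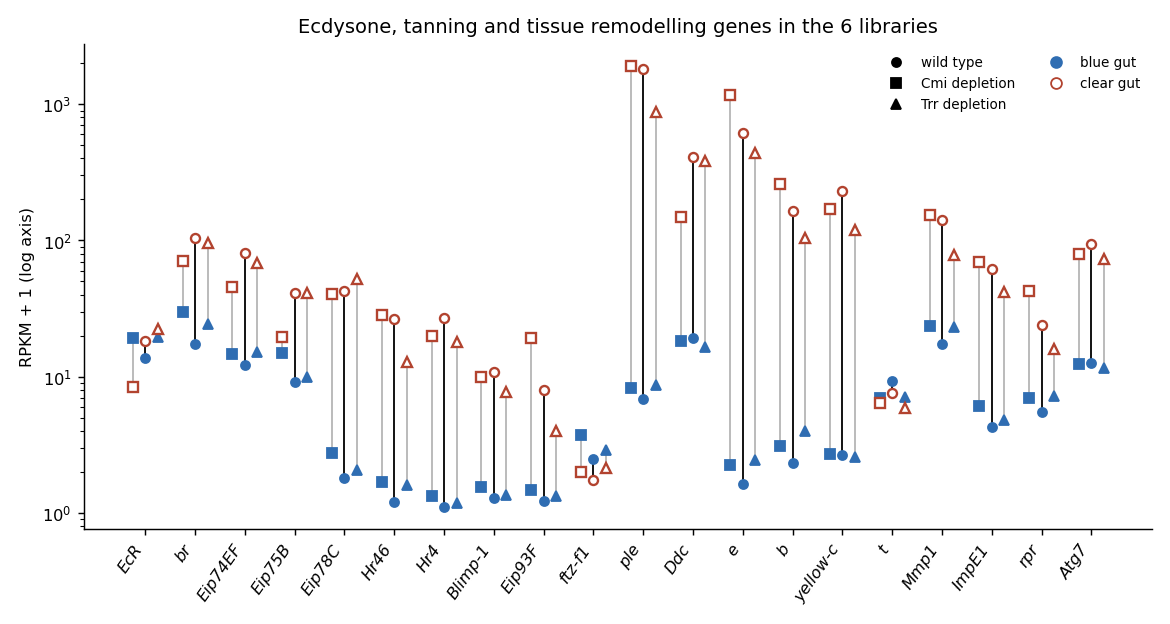
Levels of 20 ecdysone, tanning and tissue remodelling genes as RPKM + 1 on a log axis in the 6 libraries. Filled blue symbols are blue gut and open red symbols clear gut, circles are wild type, squares Cmi depletion and triangles the Trr-labelled pair, and a line joins the stages of a genotype. For ple, e, b and yellow-c the clear gut symbols of the 3 genotypes stand far above the blue gut symbols, while the 6 symbols of t lie between 4.88 and 8.30 RPKM.

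Cuticle proteins of the larva were lower and proteins of the apical extracellular matrix higher. Larval cuticle genes included 12 lower and 1 higher of the 13 tested, with a median of -2.83, and 25 further members were below the mean of 1 RPKM. Lcp65Ab1 measured 1702 and 26.8 RPKM, a ratio of 0.0158 (0.0143 to 0.0174). It has a near-identical copy, Lcp65Ab2, beside it, so reads could have been split between them. Lcp9 measured 569 and 16.5 RPKM, and Lcp3 20.3 and 1.53. Lcp3 was far more abundant at blue gut in the other genotypes, at 545.7 RPKM in Cmi depletion and 2669 in the Trr-labelled library. The member that was higher is TwdlE, a Tweedle family protein, with 2.38 and 13.4 RPKM.

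Apical matrix and zona pellucida proteins link the surface of epithelia to the matrix that covers it. Of 13 tested 9 were higher and 0 lower, with a median of 1.51, and after centring on length 8 were higher and 1 lower. mey measured 1.87 and 16.4 RPKM, a ratio of 8.76 (7.38 to 10.5), and neo 4.84 and 31.9 RPKM, a ratio of 6.60 (5.88 to 7.42). pio, an anchoring protein of the tracheal and wing matrix, measured 40.5 and 132 RPKM. Chitin genes were divided, with 6 higher and 7 lower of 35 and a median of 0.24. The shares were 17.1% and 20.0%, beside 15.1% and 9.46% of all genes. After centring on length 5 were higher and 6 lower, with a median of -0.05. Cht5, a moulting chitinase, measured 8.60 and 71.9 RPKM, a ratio of 8.35 (7.55 to 9.26). The obstructor genes obst-F (51.4 and 5.27 RPKM) and obst-E (23.1 and 2.37), whose products bind chitin, were lower. The epidermal chitin synthase kkv was within 2-fold at 13.8 and 19.9 RPKM. Of the pupal cuticle and Ccp84A genes 4 of 11 were tested, and Pcp was higher (3.97 and 27.5 RPKM). Only 4 of 23 Osiris genes passed the limit on the mean, with 0 higher and 1 lower, namely Osi2 at 2.73 and 0.562 RPKM.

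Among the highest genes of the comparison were uncharacterised genes, 3 of which lie side by side. On chromosome 3L, CG7924 (14233469 to 14234609), CG34244 (14235053 to 14235941) and CG7906 (14236635 to 14238272) follow each other. CG7924 measured 0.631 and 1383 RPKM, a ratio of 2192 (1350.0 to 3837). CG7906 measured 0.449 and 1044 RPKM, and CG34244 0.418 and 706. In the same order as these values, the clear gut levels in Cmi depletion were 2199, 1522 and 1216 RPKM, and in the Trr-labelled library 689, 489 and 369. All lay above wild type in the former and below it in the latter.

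The other high-ranking uncharacterised genes were CG34193 (0.484 and 894 RPKM), CG14664 (0.274 and 742.5), CG13606 (1.70 and 800.3) and CG2070 (0.157 and 173). CG34206 had no read at blue gut and 307 RPKM at clear gut, 2051-fold higher against a floor of 3 reads in the blue gut library. The lower limit of the counting interval of its ratio was 1668. CG9822 likewise had no read and then 175 RPKM, 1173-fold higher against the same floor, with a lower limit of 953.6. Of the 46 genes at least 16-fold higher, 54.3% carry only a CG number as symbol, beside 50.1% of all tested genes. Of the 93 genes at least 16-fold lower, 64.5% do.

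Immune peptides were divided. Of 18 tested 6 were higher (33.3%, beside 15.1% of all genes) and 5 lower (27.8%, beside 9.46%), with a median of 0.43. PGRP-SB2, a peptidoglycan recognition protein, had no read at blue gut and 421 RPKM at clear gut. This is 2285-fold higher against a floor of 3 reads, with a lower limit of the counting interval of 1858. PGRP-SB2 measured 0.541 and 250.4 RPKM in Cmi depletion but 0.304 and 4.27 in the Trr-labelled pair. Its neighbour PGRP-SB1 was also higher, with 13.9 and 116 RPKM. Among drosomycin-like genes, Drsl5 measured 118 and 3042 RPKM, a ratio of 25.9 (24.4 to 27.4), and Drsl2 0.137 and 70.1 RPKM. Lower members included CG16712, with 198 and 10.6 RPKM, and CecC, a cecropin, with 14.2 and 1.45. CecA2, another cecropin, was higher at 1.38 and 8.72 RPKM, so the family did not move as one.

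Most genes of digestion were lower. Of 29 tested midgut proteases 27 were lower and 0 higher, with a median of -3.11, beside 9.46% of all genes that were lower. Their share of the reads went from 5.94% to 0.981%. In a pool of whole larvae, fewer cells of a type and less RNA per cell cannot be told apart. The 8 midgut markers summed to 19480 RPKM at blue gut and 2096 at clear gut, and 0 of them were at 0 in both.

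Single proteases ranked among the largest differences in level. Jon65Aiv, a chymotrypsin-like Jonah protease, measured 12200.0 and 1924 RPKM, a ratio of 0.158 (0.156 to 0.159). Jon99Ciii measured 8198 and 837 RPKM, CG18180 7717 and 549, Jon99Cii 7283 and 738.5, and Jon66Ci 5504 and 411. The trypsins thetaTry (445 and 10.8 RPKM) and zetaTry (95.5 and 1.77) had ratios of 0.0242 (0.0214 to 0.0273) and 0.0186 (0.0133 to 0.0253). lambdaTry had 12.1 RPKM and then no read, 93.8-fold lower against a floor of 3 reads. The upper limit of the counting interval of its ratio was 0.0132. Jonah and trypsin genes have close copies, so single values depend on how reads were assigned. In Cmi depletion the median of the group was -4.15 and in the Trr-labelled pair -2.48.

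Enzymes of sugars and fats and lysozymes of the gut followed. Of 25 midgut carbohydrases and lipases 16 were lower and 2 higher, with a median of -2.49 and the same counts after centring on length. The alpha-mannosidase genes CG9468 (417 and 3.96 RPKM) and CG9466 (134.0 and 0.621) were among the 12 lowest genes of all, with ratios of 0.00950 (0.00846 to 0.0106) and 0.00463 (0.00339 to 0.00619). The amylases Amy-p (135 and 7.48 RPKM) and Amy-d (222 and 14.9) are near-identical copies. Of 7 digestive lysozyme genes 5 were lower, with a median of -5.60. LysB measured 3659 and 71.2 RPKM, LysD 1480.0 and 18.4, LysC 928 and 11.4 and LysS 1098 and 21.7. The exceptions were LysP (14.6 and 9.85 RPKM) and LysX (261 and 359), which lay within 2-fold.

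The peritrophic matrix, the chitinous sleeve around the food, had members on both sides. Of 14 tested genes 8 were lower and 4 higher, with a median of -1.63. Muc55B measured 257 and 10.2 RPKM and Peritrophin-15a 1950.0 and 300.1. On the other side, the mucin gene Muc68E measured 0.778 and 95.8 RPKM, a ratio of 123 (101 to 152), and was higher in all 3 genotypes. Of 20 odorant binding protein genes 2 were higher and 3 lower, and Obp99b, one of the most abundant transcripts, measured 11960.0 and 6436 RPKM.

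Fat body storage proteins held fewer of the reads at clear gut. The list's share went from 16.1% to 7.87%, although 5 of its 13 tested members were lower and 0 higher, with a median of -0.73. After centring on length 8 were lower and 0 higher. The hexamerins of the Lsp1 family, which store amino acids for metamorphosis, differed most. Lsp1alpha measured 6347 and 101 RPKM, a ratio of 0.0160 (0.0156 to 0.0164). Lsp1beta measured 7387 and 252.5 RPKM, and Lsp1gamma 10840.0 and 218. In the other genotypes Lsp1gamma kept a higher level at clear gut, 997 RPKM in Cmi depletion and 2126 in the Trr-labelled library. The rest of the family did not share this. Lsp1alpha stood there at 63.8 and 77.7 RPKM, below wild type, and Lsp1beta at 123.6 and 269.2, against 252.5 in wild type.

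Lsp2, the later hexamerin, measured 14350.0 and 7100.0 RPKM, a ratio of 0.495 (0.493 to 0.497), just past 2-fold. The hexamerin receptor gene Fbp1 was higher within 2-fold, at 8725 and 12120.0 RPKM, with larger steps in Cmi depletion (5548 and 17480.0) and in the Trr-labelled pair (6383 and 13930.0). Of these fat body genes, the Lsp1 family was thus called lower in wild type, while Fbp1 was called neither higher nor lower. The 7 fat body markers summed to 55330.0 RPKM at blue gut and 28600.0 at clear gut.

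Most muscle proteins were lower. Of 25 sarcomere and muscle genes 15 were lower and 3 higher, with a median of -1.70, and after centring on length 19 were lower and 1 higher. The myosin heavy chain Mhc measured 141 and 4.79 RPKM, a ratio of 0.0339 (0.0316 to 0.0363). The light chains Mlc2 (675.5 and 21.9 RPKM) and Mlc1 (308.0 and 17.8) had ratios of 0.0325 and 0.0577. TpnC47D, a troponin C, measured 114 and 0.844 RPKM, a ratio of 0.00738 (0.00392 to 0.0127). The transcription factor Mef2 (8.94 and 26.3 RPKM) and the RNA-binding protein how (10.7 and 41.4) were higher. The summed muscle markers went from 2012 to 265 RPKM in wild type, while Cmi depletion had 2128 and then 97.8 and the Trr-labelled pair 1593 and then 484.

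Blood cell genes also included more lower than higher members, with 15 lower and 4 higher of 26 and a median of -1.20, and 16 lower and 2 higher after centring on length. The clotting gene fon measured 691 and 74.4 RPKM, and the plasmatocyte marker Hml 15.9 and 3.78, a ratio of 0.238 (0.222 to 0.254). The nimrod genes were divided, with nimB2 at 171 and 32.3 RPKM and the receptor nimC2 at 87.5 and 349, a ratio of 3.99 (3.87 to 4.11).

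**Figure D4:**
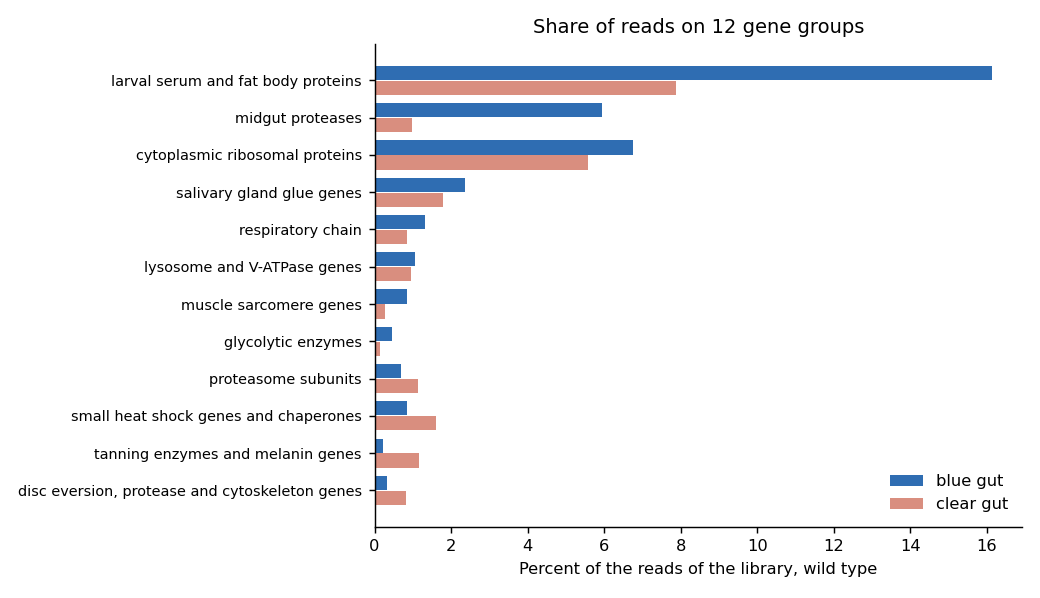
Percent of the reads of each wild-type library that fell on 12 gene groups, with blue bars for blue gut and light red bars for clear gut. Larval serum and fat body proteins took 16.1% at blue gut and 7.87% at clear gut, midgut proteases 5.94% and 0.981%, and tanning and melanin genes 0.209% and 1.17%.

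Several genes of tissue death had higher levels. Of 17 cell death genes 5 were higher and 1 lower, with a median of 0.76 and the same counts after centring on length. The shares were 29.4% and 5.88%, beside 15.1% and 9.46% of all genes. The initiator caspase Nc (Dronc) measured 21.0 and 103 RPKM, a ratio of 4.89 (4.57 to 5.23), and its adaptor Ark 7.65 and 37.4, a ratio of 4.88 (4.54 to 5.26). The killer genes rpr (reaper) and W (hid) measured 4.54 and 22.96 RPKM and 3.45 and 14.4. Both remove the inhibitor th (Diap1), whose own transcript measured 93.6 and 185 RPKM. The effector caspase Ice lay within 2-fold (44.2 and 77.8), and the caspase Damm was the lower member (49.4 and 18.8).

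Autophagy genes included 7 higher (29.2%, beside 15.1% of all genes) and 0 lower of 24, with a median of 0.43, and 5 higher after centring on length. Atg7, the enzyme that activates the ubiquitin-like proteins of autophagy, measured 11.5 and 92.5 RPKM, a ratio of 8.04 (7.41 to 8.74). The kinase Atg1 (12.3 and 41.1 RPKM) and its partner Atg13 (7.45 and 30.2) were also higher, while Atg8a, the abundant membrane mark, stood at 494 and 652. Of 34 lysosome and V-ATPase genes 0 were higher and 2 lower (5.88%, beside 9.46% of all genes), with a median of -0.44. The lower ones were Vha100-4 (26.1 and 0.846 RPKM) and Vha100-5 (84.7 and 8.62).

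The proteasome moved as a block by a small step. All 31 tested subunits were above 0, with a median of 0.65, although only Rpn1 (122 and 253 RPKM) and Rpn6 (172 and 349.5) passed 2-fold. The medians were 0.72 in Cmi depletion and 0.67 in the Trr-labelled pair. After centring on length the wild-type median was 0.76.

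Heat shock genes were divided, also within families. Of 19 tested 6 were higher and 6 lower (31.6% each, beside 15.1% and 9.46% of all genes), with a median of 0.06. After centring on length 5 were higher and 5 lower. Most small heat shock genes of the 67B cluster, known targets of ecdysone, were higher, while Hsp22 of that cluster had a log2 difference of -0.86. Outside that cluster the small heat shock gene l(2)efl was lower, with 659.7 and 258 RPKM. The highest, Hsp23, measured 453 and 4073 RPKM, a ratio of 8.999 (8.83 to 9.17). Hsp27 measured 429 and 2059 RPKM and Hsp26 138 and 649. Copies of Hsp70, induced by heat stress, were lower, with Hsp70Aa at 11.5 and 0.217 RPKM, and these copies share reads. Hsp68, of the same family, was higher, with 39.9 and 85.2 RPKM. The constitutive chaperone Hsp83 was level, at 716 and 745 RPKM.

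Genes of energy metabolism had lower levels. Of 14 glycolytic genes 12 were lower and 0 higher, with a median of -1.64, and after centring on length all 14 were lower. Pglym78, phosphoglycerate mutase, measured 258 and 40.2 RPKM, a ratio of 0.156 (0.146 to 0.166). Aldolase (Ald) measured 140.2 and 34.4 RPKM, and Gapdh1 772 and 193. The median was -1.35 in Cmi depletion and -0.99 in the Trr-labelled pair.

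Among genes of fatty acid synthesis and lipolysis 7 were lower and 2 higher of 19, with a median of -0.31, and after centring on length 8 were lower and 0 higher. The lipase gene mag measured 453 and 41.9 RPKM, the fatty acid synthase CG3523 56.9 and 7.66, and the desaturase desat1 301 and 78.4. All 37 respiratory chain genes were below 0, with a median of -0.92 and 10 past 2-fold. These are short genes, with a median of 906 bases, and after centring on length 1 was lower and the median was -0.74.

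Many detoxification genes were lower. Of 58 cytochrome P450 genes 41 were lower and 2 higher, with a median of -1.35, and centring on length left the same counts. Cyp6a23 measured 207 and 7.73 RPKM, a ratio of 0.0373 (0.0333 to 0.0417), and Cyp9b2 552 and 56.1. Of 31 glutathione S-transferase genes 14 were lower and 1 higher, with a median of -0.83, led by GstE10 at 24.6 and 0.959 RPKM. These are short genes, and with centring on length 11 were lower and the median was -0.56. In Cmi depletion the transferase median was -0.16. The Malpighian tubule list had 3 higher and 2 lower of 18 (16.7% and 11.1%), near the 15.1% and 9.46% of all genes. It had 2 higher and 6 lower after centring on length. Urate oxidase (Uro) was lower, at 60.7 and 0.394 RPKM, a ratio of 0.00649 (0.00334 to 0.0114), and bw was higher, at 4.67 and 27.95 RPKM. Of 18 genes of copper, zinc and iron handling 1 was higher and 3 lower (1 and 2 after centring on length). The shares were 5.56% and 16.7%, beside 15.1% and 9.46% of all genes. MtnA, a metallothionein, stood at 425 and 196 RPKM.

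Lists of imaginal disc genes, whose members are long, held many higher genes before centring on length and fewer after it. Of 47 disc patterning genes 21 were higher and 0 lower, with a median of 0.95. After centring on length 4 were higher and 1 lower, a share near the 8.33% of all genes, with a median of 0.39. The median length of this list was 3870 bases. The homeobox gene hth measured 6.03 and 28.2 RPKM, a ratio of 4.68 (4.35 to 5.03). The signalling genes wg (3.06 and 9.42 RPKM) and dpp (2.44 and 5.76) had ratios of 3.08 (2.63 to 3.62) and 2.37 (2.03 to 2.76). In Cmi depletion 6 of the list were higher and the median was 0.68, and in the Trr-labelled pair 6 and 0.63.

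Genes of disc eversion, proteases and the cytoskeleton had 19 higher and 0 lower of 29, a median of 1.23 and a median length of 5181 bases. After centring on length 7 were higher. The matrix metalloproteases, which clear basement membrane, differed most apart from ImpE1. Mmp1 measured 16.5 and 139 RPKM, a ratio of 8.47 (8.02 to 8.94), and Mmp2 8.24 and 71.0, a ratio of 8.61 (8.001 to 9.28). Larvae with Cmi depletion had Mmp1 at 22.5 and 153 RPKM, and the Trr-labelled pair had it at 22.3 and 76.6. The membrane protease Sb (Stubble), needed for leg eversion, measured 0.86 and 7.02 RPKM, a ratio of 8.17 (6.42 to 10.5).

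Hox genes had 4 higher and 0 lower of 6, with a median of 1.502, and 2 higher after centring on length. abd-A measured 5.95 and 28.6 RPKM, a ratio of 4.804 (4.44 to 5.21), while Antp, at 3.61 and 8.15 RPKM, had a log2(RPKM + 1) difference of 0.99, just short of 2-fold. Of 22 Notch and Enhancer of split genes 5 were higher and 1 lower, with a median of 0.63. The shares were 22.7% and 4.55%, beside 15.1% and 9.46% of all genes. The coactivator mam measured 4.27 and 19.3 RPKM, and the lower member Kaz-m1, a protease inhibitor gene of the Enhancer of split region, 158 and 19.4.

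Polycomb and COMPASS genes had 14 higher and 0 lower of 34 and a median of 0.91, against 1 higher and a median of 0.19 after centring on length, with a median length of 4494 bases. The demethylase gene Utx measured 12.3 and 36.3 RPKM, a ratio of 2.95 (2.75 to 3.17), and trx 2.07 and 7.28, a ratio of 3.52 (3.23 to 3.84). The target of the Cmi hairpin, Lpt, was level at 5.57 and 6.66 RPKM, a ratio of 1.20 (1.07 to 1.33), and trr measured 2.92 and 6.19, a ratio of 2.12 (1.91 to 2.34).

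Insulin and TOR signalling genes had 8 higher (33.3%, beside 15.1% of all genes) and 0 lower of 24, with a median of 0.84. The list had 3 higher with a median of 0.15 after centring on length. The receptor InR measured 0.959 and 5.52 RPKM, a ratio of 5.76 (5.02 to 6.64), and the amino acid transporter slif 17.5 and 74.1. Ilp6, the insulin-like peptide of the fat body, measured 54.9 and 143 RPKM. The brain insulin genes Ilp2 (12.6 and 7.97 RPKM), Ilp3 (7.39 and 3.31) and Ilp5 (5.16 and 3.76) did not pass 2-fold on the log2(RPKM + 1) scale, and the counting interval of the Ilp5 ratio (0.483 to 1.09) includes 1. Ilp8, the relaxin-like signal of delayed discs, was scarce in wild type (0.585 and 2.19 RPKM) and in the Trr-labelled pair (0.533 and 1.42), and reached 28.6 at clear gut in Cmi depletion from 0.764.

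Other lists lay nearer to the background. Neuronal and synaptic genes had 5 higher (25.0%, beside 15.1% of all genes) and 0 lower of 20. Among them ple, shared with the tanning list, had by far the greatest difference. After centring on length 1 was higher, 2 were lower and the median turned from 0.65 to -0.13. Peptide hormone and ecdysis genes had 2 higher (7.14%, beside 15.1%) and 0 lower of 28, with a median of -0.33. They had 0 higher and 2 lower with a median of -0.15 after centring on length. The ecdysis hormones ETH (3.05 and 2.17 RPKM) and Eh (1.48 and 0.958) had counting intervals of the ratio that include 1. Testis genes had 1 higher (3.57%, beside 15.1%) and 0 lower of 28. The higher one was betaTub60D, a tubulin also used outside the testis, at 12.6 and 74.2 RPKM. The median of the testis list was -0.50, and 0.46 in Cmi depletion. Dosage compensation and sex markers had 1 higher and 1 lower of 8 (12.5% each, beside 15.1% and 9.46% of all genes). After centring on length 0 were higher and 2 lower, and their median length was 3928 bases.

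Genes of growth kept to a narrow range. None of the 45 cell cycle and replication genes passed 2-fold, with a median of 0.20, and after centring on length 1 was lower. CycE measured 4.27 and 6.95 RPKM and stg 11.8 and 15.97. Of 71 cytoplasmic ribosomal protein genes 0 passed 2-fold, and 69 were below 0 with a median of -0.28, which was 0.01 after centring on length. Of 26 ribosome biogenesis genes 0 passed 2-fold, with a median of 0.12, and 0 did after centring on length. Of 32 protein secretion genes 1 did, sec24, at 21.9 and 46.6 RPKM, and 0 did after centring on length.

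**Figure D5:**
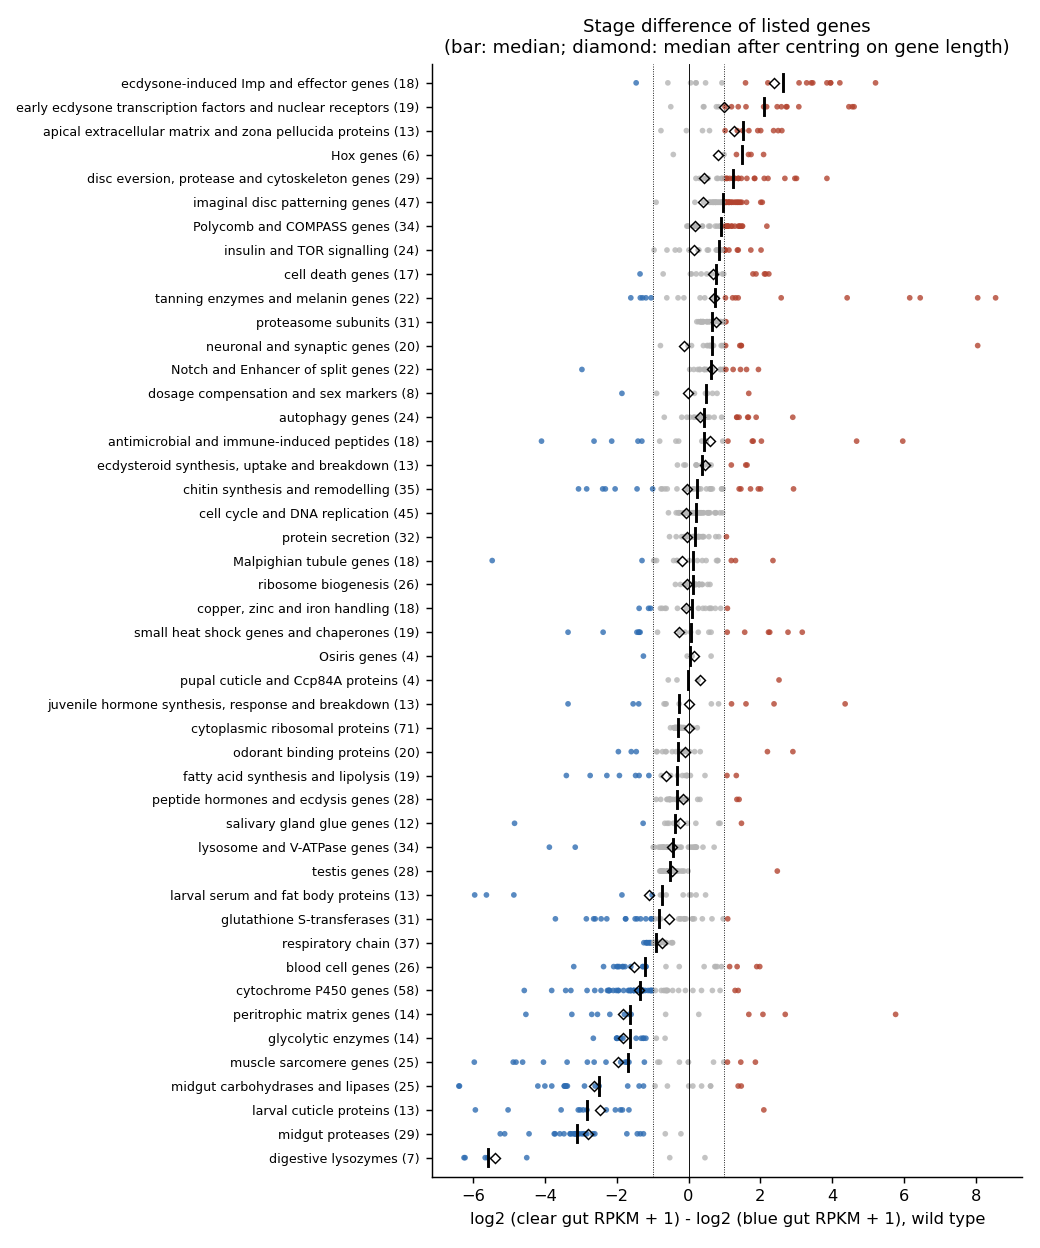
Stage difference in wild type, as log2(RPKM + 1) at clear gut minus blue gut, for each tested member (points) of the 46 gene lists, ordered by median, with the number tested in brackets. Red and blue points are past 2-fold (dotted lines), black bars are list medians and diamonds medians after centring on gene length. The diamonds of long-gene lists such as disc patterning (0.39 against 0.95) and Polycomb and COMPASS genes (0.19 against 0.91) lie closer to 0 than the bars, while those of midgut proteases (-2.79 against -3.11) and tanning genes (0.72 against 0.74) lie near them.

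Genes next to each other on the chromosome often moved together, most of all among the lower genes. Neighbours and runs were taken among the tested genes only, so genes below the mean of 1 RPKM are passed over. Of 1038 lower genes with coordinates 45.0% had a neighbour that was also lower, while 17.6% of all tested genes had a lower neighbour. For higher genes the shares were 33.6% and 27.3%. Among genes at least 8-fold lower, 65.8% had a lower neighbour. Neighbours are often copies of each other that share function and, where nearly identical, reads.

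The longest runs, of 11 lower genes each, were mostly made of related genes. On chromosome 2R, 11 adjacent tested genes of the trypsin cluster (11336840 to 11356128) summed to 13450.0 RPKM at blue gut and 1423 at clear gut. On 3L, 11 adjacent tested genes (6123934 to 6151803) summed to 2023 and 53.1 RPKM. They are l(3)mbn and Cpr65A and Lcp65A cuticle genes. Lcp65A genes below the limit on the mean, such as Lcp65Af (0.417 and 0.399 RPKM), were not considered. Next came 8 lower genes on 3R (17120465 to 17137195), all with CG numbers, with 229 and 20.4 RPKM. A 3L run of 6 lower genes (4465105 to 4484370), which includes CG7465, summed to 1407 and 69.6 RPKM. CG7465 had the lowest log2 difference of all tested genes, with 521 and 1.45 RPKM and a ratio of 0.00278 (0.00198 to 0.00378). The longest higher runs held 6 genes each and carried no family name in common. On the X chromosome (5879869 to 5941852) a run with the actin gene Act5C summed to 1397 and 3201 RPKM, and on 3L (8415857 to 8507146) a run with Cbl, Unr and Gug to 39.7 and 204 RPKM. Of the higher runs of 5 genes, that at 3L 9376418 to 9399227, with Hsp26, Hsp23 and Hsp27 among them, summed to 1068 and 6959 RPKM.

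Further genes among the 12 lowest lay outside these runs. CG13560 measured 282 and 1.64 RPKM, Pebp1, named for binding phosphatidylethanolamine, 781 and 6.97, and Nplp2, a neuropeptide-like precursor, 321 and 2.34. The acyl-CoA binding protein genes CG5804 (184 and 1.15 RPKM) and CG8629 (87.3 and 0.263) were also in this set. CG8629 lies in a run of 4 adjacent tested genes, all lower, on 3L (7125905 to 7133463) with BBS1, CG15829 and Dbi. Each of the 5 genes was lower in the other genotypes as well, and each had a smaller step in the Trr-labelled pair. There the log2 differences were -2.45 for CG13560, -4.46 for Pebp1, -1.68 for Nplp2, -1.90 for CG5804 and -4.21 for CG8629, against -6.13 to -6.74 in wild type.

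On chromosome 4, which carries few and long genes, 24 of 73 tested genes (32.9%) were higher and 0 lower. The median was 0.79 and the median length 3872 bases, and after centring on length 1 was higher, 2 were lower and the median was 0.29. The X chromosome and the large autosome arms had 13.8% to 16.7% of genes higher.

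Since the 3 genotypes share no library in a stage comparison, the wild-type members can be set beside Cmi depletion and the Trr-labelled pair. Of the 1704 higher genes 31.6% (539) were at least 2-fold higher in both other genotypes too, beside 5.04% of all tested genes. Of the 1068 lower genes 59.9% (640) were at least 2-fold lower in both, beside 6.10% of all tested genes. The share depended on the size of the step. Among genes 2-fold to 4-fold higher it was 18.7%, and among those 2-fold to 4-fold lower 39.4%. For 4-fold to 8-fold it was 83.1% and 82.2%, and all 20 and all 10 of the genes past 64-fold had it. The 1704 higher genes had a median of 1.41 in wild type, 1.00 in Cmi depletion and 0.85 in the Trr-labelled pair. The 1068 lower genes had medians of -1.87, -2.23 and -1.28. They were chosen on wild type, and with 1 library per group the difference between genotypes was not tested.

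Opposite movement was rare. In all, 20 genes were past 2-fold in opposite directions in wild type and in at least 1 of the other genotypes. The immune-induced peptide IM14 went from 3.50 to 14.7 RPKM in wild type and, in Cmi larvae, from 0.571 to 3.77, but from 48.4 to 3.19 in the Trr-labelled pair. yin, a peptide transporter gene, went from 8.21 to 56.4 RPKM in wild type, and from 6.85 to 69.2 in the Trr-labelled pair, but from 8.21 to 3.45 in Cmi depletion.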

How the data were processed

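The table deposited by the authors gives RPKM per gene, with a gene length, for 6 libraries. Per the labels' protocols, DNase I treatment preceded oligo dT selection, sequencing ran on an Illumina HiSeq, and SOAPaligner/SOAP2 aligned the reads. Bowtie and the build dm6 stand in the submitters' processing notes. Which counter and annotation were used is not given in the sources used here. A dash was read as 0. Reads were recovered from RPKM and length at the depth where values come out whole (83.0% and 83.7% of wild-type values within 0.1 of a whole read, 99.96% and 100.0% within 0.1 of a multiple of 0.5 reads), and 710 tested entries off whole reads, among them yellow-c, LysC, CG8629, obst-F, CG16712 and Hsp70Aa, are left out in an alternative. RPKM are shares of the reads of a library, so a group that loses reads raises the others.

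Clear gut was compared with blue gut as the difference of log2(RPKM + 1), which understates low genes, for genes whose mean was 1 RPKM or more. Intervals are exact (Clopper-Pearson, 95%) for the share of reads in 1 library, and a fold against 0 reads uses a floor of 3 reads per library. Coordinates and neighbours come from RefSeq (dm6), which matched 10569 (93.6%) of the tested genes. The genes and the 46 lists were chosen with earlier results of these data known. Some lists were trimmed of wrongly matched symbols after the table was read, 4 entries of them after values were seen, so list counts are descriptions. Genes are named as the 12 highest, the 12 lowest, the 10 with the largest RPKM difference, up to 6 per list past 2-fold, and key genes of a list. Members named as exceptions within a list or cluster were chosen after their values were seen. The calculation was tested on simulated data. Promoter motifs were not analysed here. Python 3.11.15, numpy 2.4.6, pandas 2.3.3, scipy 1.17.1 and matplotlib 3.10.9 were used.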

Additional observations from a re-analysis of the deposited data

Results flagged for a closer look

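Some of the named genes and 1 run of neighbouring genes were past 2-fold in opposite directions in wild type and in another genotype. With 1 library per group the difference was not tested. MtnB, a metallothionein, had a log2 difference of 1.08 in wild type, 0.30 in Cmi depletion and -1.37 in the Trr-labelled pair, with 46.3 RPKM at blue gut and 17.3 at clear gut in the latter. IM14 had a log2 difference of 1.80 in wild type, 1.601 in Cmi depletion and -3.56 in the Trr-labelled pair. yin had 2.64 in wild type and 3.16 in the Trr-labelled pair, but -1.05 in Cmi depletion. IM14 and yin were chosen after the values were seen. The run of 5 neighbours CG14850, CG14851, CG8087, CG14852 and CG31313 on chromosome 3R (14560935 to 14567429) had a median of -3.53 in wild type, -4.55 in Cmi depletion and 1.54 in the Trr-labelled pair. CG14852 stood at 318 RPKM at blue gut in wild type, against 5.97 in the Trr-labelled library.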

How the results depend on the processing

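No paired analysis was possible because each group holds 1 library, and for the same reason no library could be left out. The median over all genes (0.12) was 0 with median-ratio scaling and 0 after centring on length, which both methods are built to give. The count of higher genes (1704) was 941 after centring on length, an alternative chosen after seeing the data, and 539 when both other genotypes had to have the same direction past 2-fold. The count of lower genes (1068) was 640 with the same demand. Of the called genes 61.5% were higher as deposited, 55.5% with quantile normalization (1475 higher and 1183 lower), 52.7% with median-ratio scaling and 46.2% after centring on length. Other pseudocounts, other limits on the mean, leaving out entries off whole reads and asking for a counting interval wholly beyond 2-fold kept both counts within 1.5 times.

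Some list medians changed sign. Juvenile hormone genes (-0.26) stood at 0.635 with a mean of at least 5 RPKM and at 0.0106 after centring on length. With quantile normalization the glue genes (-0.36) stood at 0.3645, the Malpighian tubule genes at -0.0756, ribosomal proteins at 0.0426 and ribosome biogenesis at -0.0445. With median-ratio scaling metal handling stood at -0.0269 and ribosome biogenesis at -0.0070. After centring on length chitin genes stood at -0.0466, cell cycle genes at -0.0670, neuronal genes (0.65) at -0.133, sex markers at -0.0250, Malpighian tubule genes at -0.185, metal handling at -0.0596, ribosomal proteins at 0.0066, ribosome biogenesis at -0.0301, and protein secretion at -0.0513. The channel gene Sh, called higher with a log2 difference of 1.03, stood at -0.077 after centring. The cause was not tested. Genes with few reads in 1 library, such as Hr4 and Eig71Eb at blue gut, have wide counting intervals.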
